A study of Homo sapiens with 24 samples.

Results

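Transcript levels were compared between 3 libraries of MDA-MB-436 labelled MDM2 shRNA and 3 libraries of the same line carrying a non-targeting shRNA. The 6 libraries were chosen by their labels, out of 24 in the series, and every gene in the files entered. MDA-MB-436 is a cell line from a triple-negative breast cancer. A short hairpin RNA (shRNA) is processed in the cell into a small RNA that lowers the transcript it matches. The other libraries of the series are MDA-MB-231, another triple-negative line, with the same 2 hairpin labels, and both lines treated either with DMSO or with YX-2-30, a PROTAC against MDM2, with 3 libraries in each of 8 groups. A PROTAC is a bridging compound that brings a ubiquitin ligase to a chosen protein and so marks it for destruction. All groups were grown in DMEM with 10% serum. The labels give no hairpin sequence, vector, clone or time after transfer of the hairpin, and no dose or time for the PROTAC. They do not say that replicates were separate cultures, so p-values measure only the spread between libraries. For the main comparison that spread was estimated over all 12 MDA-MB-436 libraries, those with DMSO and the PROTAC included, and not over the 6 compared alone.

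MDM2 is a ubiquitin ligase and the main restraint on the p53 family of transcription factors, which switch on genes of cell cycle arrest and death. MDM4 is its close relative and partner. TP73 and TP63 code for members of the same family. MDM2 also has other partners in the control of the cell cycle and of chromatin.

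Library totals ran from 57213689 to 174744841 counts, the highest in non-targeting replicate 3. Levels are given as CPM, the count relative to the library total after that total was scaled by TMM (trimmed mean of M values). The TMM factors were 0.928 to 0.938 in the non-targeting libraries and 1.05 to 1.06 in those labelled MDM2 shRNA. The share of counts from mitochondrially encoded genes was 7.0 to 7.26% and 5.47 to 5.50% in the same order. The labels call the cells epithelial. KRT8 and KRT18, keratins of simple epithelia, were abundant, with means of 580 and 446 CPM in the controls. CDH1 and EPCAM, epithelial adhesion genes, had 0.0242 and 4.24 CPM, and VIM, a mesenchymal filament gene, had 857 CPM. The epithelial label therefore holds for these keratins and not for CDH1.

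No fall of MDM2 itself was detected, though the spread between libraries could hide a modest one. Its level was 22.0, 30.6 and 23.8 CPM in the non-targeting libraries and 14.8, 28.6 and 27.5 CPM in those labelled MDM2 shRNA. The groups overlapped, and 1 library of the second group lay below all others. The log2 difference (labelled MDM2 shRNA minus non-targeting, used throughout) was -0.11 with a standard error of 0.22 and an adjusted p of 0.78 in edgeR's quasi-likelihood test. It was 0.07 with library totals in place of TMM. Counts of RNA say nothing of the MDM2 protein, and the label is therefore used as a label wherever a direction is given below. MDM2 shares exons with other annotated genes, and the strand of the libraries is not given in the sources used here.

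**Figure D1:**
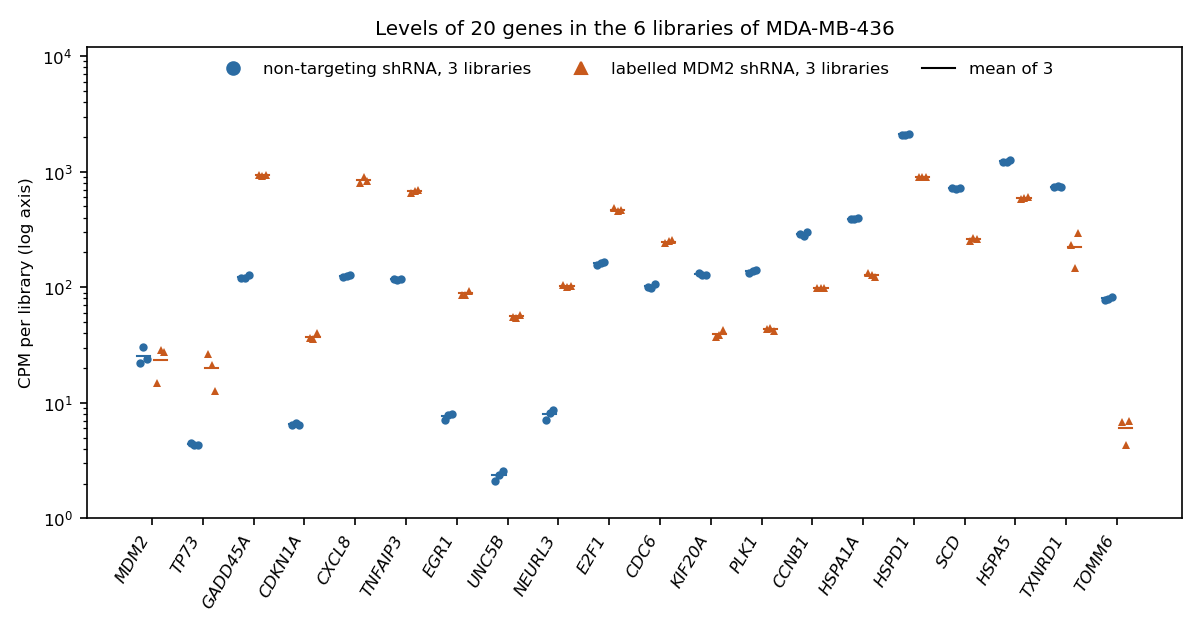
CPM on a log axis for 20 genes, with 3 non-targeting libraries (circles) and 3 libraries labelled MDM2 shRNA (triangles) per gene, and a line at each mean. The groups overlap for MDM2 (means of 25.4 and 23.7 CPM) and lie apart for the other genes drawn, which were picked after their values were seen.

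The comparison asks which transcripts differ when a hairpin labelled as directed at MDM2 is present. Of 22663 genes tested, 6896 (30.4%) differed at an adjusted p under 0.05, which is what called means below. Of these, 3622 were higher (16.0% of genes tested) and 3274 lower (14.4%) with the MDM2 shRNA label. At least 2-fold rises numbered 1500 and falls 510, and at least 4-fold rises 483 and falls 51. The 2 groups did not overlap for 11793 genes (52.0%). They overlapped for only 49 of the 6896 called genes, so a lack of overlap adds little to a call. The largest rises and falls of protein-coding genes given below were picked among genes without overlap. The even split depended on the scaling. With library totals alone, 5196 genes were higher and 1937 lower, so that 72.8% of calls were rises, and the median log2 difference of all genes moved from 0.04 to 0.22. Among protein-coding genes of at least 100 CPM, 14.9% rose and 40.9% fell, whereas below 1 CPM 7.95% rose and 1.04% fell.

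In the list of MDM2 partners and the p53 family circuit, 6 of 23 rose and 7 fell, with a median of -0.11. TP73 was at 4.52, 4.30 and 4.27 CPM in the non-targeting libraries and at 26.2, 21.1 and 12.6 CPM with the MDM2 shRNA label. All 3 labelled libraries were above all controls, with a spread among themselves. The log2 difference was 2.19 ± 0.27 (standard error), with an adjusted p of 9.61e-05. TP63 was near 0 everywhere, at no more than 0.239 CPM. MDM4 was at 6.34, 14.6 and 7.81 CPM in controls and at 7.30, 6.05 and 76.4 CPM with the label. Its groups overlapped, the high value came from replicate 3 alone, and without that library the log2 difference turned from 1.65 to -0.52, neither called. FOXO3, a transcription factor that MDM2 can mark for degradation, rose by 0.76 ± 0.07 on the log2 scale. RCHY1 and COP1, other ubiquitin ligases of this circuit, rose by 0.99 and fell by 0.54.

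Genes of growth arrest and the damage response were higher more often than lower, and GADD45A shared the smallest adjusted p of all genes tested with ALOXE3, a lipoxygenase gene. GADD45A, a stress gene that slows the cell cycle, was at 121, 119 and 128 CPM in the non-targeting libraries and at 942, 920 and 945 CPM with the MDM2 shRNA label. The libraries of each group lay close together and far from the other group. GADD45A was 7.63-fold higher (95% interval 6.92 to 8.42), with an adjusted p of 5.14e-10. CDKN1A, the inhibitor of cyclin-dependent kinases called p21, was at 6.44, 6.70 and 6.42 CPM and at 36.2, 35.7 and 40.1 CPM. Its groups did not overlap, and it rose by 2.52 ± 0.16 on the log2 scale. Of 36 tested members of the damage response and arrest list, 17 rose and 7 fell, with a median log2 difference of 0.34 beside 0.04 over all genes. AEN, a nuclease gene of apoptosis, rose by 1.34, and BTG2, an antiproliferative gene, by 1.26. DDB2 and XPC, which recognise damaged DNA, rose by 1.27 and 0.30. PLK2, a kinase of the same list, fell by 1.34, and CCNG1, CES2 and ZMAT3 were not called, at 0.07, 0.37 and -0.12. Among genes that promote apoptosis, 5 of 21 rose and 2 fell, a share near the 30.4% called over all genes. HRK rose by 1.69, BBC3 by 1.37 and BMF by 0.92, all of them BH3-only genes, and CASP6 fell by 0.54. In the list of survival genes, 3 of 9 rose and 2 fell. BCL2 and BIRC3, survival genes, rose by 1.17 and 1.07. MCL1 and BCL2L1, also survival genes, fell, but lost their calls with library totals in place of TMM, at -0.02 and -0.16.

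Inflammatory genes had the highest median of the 20 lists drawn in the plot of list counts. Of 34 tested NF-kB targets, cytokines and chemokines, 22 rose and 3 fell, with a median log2 difference of 1.25. NF-kB is a family of transcription factors held in the cytoplasm by inhibitors until a signal frees them, and TNFAIP3 is one of its feedback inhibitors. TNFAIP3 was at 118, 116 and 117 CPM in controls and at 659, 685 and 692 CPM with the label, a rise of 2.54 ± 0.07 on the log2 scale with an adjusted p of 2.51e-09. The 2 groups did not overlap, and each varied by little. CXCL8, a chemokine for neutrophils, was at 124, 124 and 127 CPM and at 791, 906 and 828 CPM. It rose by 2.75 ± 0.08. TRAF1, an adaptor of TNF receptors, was at 17.8, 18.6 and 18.1 CPM and at 111, 107 and 110 CPM. For both genes every labelled library was above every control. The chemokines CXCL3, CCL5 and CCL20 rose by 2.54, 2.0 and 1.99, and the cytokines IL11 and IL6 by 1.80 and 1.42. The NF-kB subunits NFKB2, RELB, REL and NFKB1 rose by 1.38, 1.37, 1.27 and 0.85. LIF, IL1B and CSF1, also in this list, fell by 0.65, 0.54 and 0.23. NFKBIA, the best known inhibitor, and ICAM1 were not called, at -0.12 and 0.13. CCL4, a chemokine outside the list and among the 15 largest rises, went from 0.267 to 12 CPM. The interferon response was more divided, with 13 of 40 higher, 4 lower and a median of 0.22. IRF7 and IRF1, transcription factors of that response, rose by 1.97 and 1.04, and IFIT1 and BST2, antiviral effectors, fell by 0.88 and 0.85.

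Immediate-early genes, which respond to signals before new protein is made, rose in 17 of 24 cases and fell in 2, with a median of 0.86. EGR1, a zinc finger factor, was at 7.12, 7.86 and 8.07 CPM in controls and at 86.4, 86.4 and 93.5 CPM with the label. The groups did not overlap, and the rise was 3.53 ± 0.10 on the log2 scale with an adjusted p of 4.20e-09. MAFF, a small MAF factor, rose by 2.06 and KLF10, a target of TGF-beta signalling, by 1.93. Among the AP-1 subunits FOSB rose by 1.68, JUNB by 0.58 and JUN by 0.48, FOSL1 fell by 0.86, and FOS was not called at 0.51. In the list of MAP kinase feedback genes, 7 of 22 rose and 4 fell, with a median of 0.15. DUSP8, DUSP10 and DUSP1, phosphatases that switch MAP kinases off, rose by 1.49, 1.27 and 1.08. In the ATF4 stress list, 15 of 38 rose and 4 fell, with a median of 0.21. ATF3 and DDIT3, stress factors, rose by 2.89 and 1.96. ASNS, the asparagine synthetase, rose by 0.72, and ATF4 itself was not called at -0.14. SLC3A2 and SLC7A5, the partners of 1 amino acid transporter, moved apart, by 1.24 and -0.95.

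Genes of DNA replication rose together, with 35 of 40 tested members higher and 0 lower, beside 16.0% higher over all genes, and a median log2 difference of 0.64. CDC6, which loads the replicative helicase, was at 101, 98.9 and 107 CPM in controls and at 241, 249 and 254 CPM with the label. CDC6 rose by 1.28 ± 0.05, with an adjusted p of 4.17e-08, and its groups did not overlap. RFC2, of the clamp loader, was at 68.7, 68.4 and 77.3 CPM and at 198, 191 and 194 CPM, and ORC1, of the origin recognition complex, at 66.0, 66.2 and 68.5 CPM and at 156, 158 and 160 CPM. Each of these genes more than doubled in its mean. CDT1, the other helicase loader, rose by 1.33, MCM2 and MCM7, helicase subunits, by 1.03 and 0.89, and PCNA, the sliding clamp, by 0.48. MCM6, RRM1, CCNE1, UHRF1 and GINS4 were not called, at -0.00, 0.15, 0.19, 0.21 and 1.53. In the list of E2F factors, pocket proteins, D cyclins and inhibitors of cyclin-dependent kinases, 10 of 23 rose and 3 fell, with a median of 0.24. E2F factors switch replication genes on or off, and of the 8 measured, 4 rose and 4 were not called. E2F1 was at 155, 163 and 165 CPM and at 483, 457 and 468 CPM, and E2F2 at 19.2, 18.4 and 18.4 CPM and at 102, 107 and 102 CPM. In both, the labelled libraries were above all controls. E2F7 and E2F8, repressors of the family, rose by 1.61 and 1.82, RBL1, a pocket protein, by 1.38, and CCND3 by 0.94. RBL2 and CCND1 fell by 0.74 and 0.87. Replication-dependent histones mostly did not pass the test, with 3 of 35 higher and 1 lower.

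The letters TTTCCCGC, TTTGGCGC or TTTCGCGC, forms of the site that E2F factors bind, were looked for on both strands of the 250 bases before each gene's start in RefSeq (GRCh38.p14). They occurred in 13 of the 35 promoters found for the replication list (37.1%) and in 2.38% of 27305 promoters in all. Of the 13 genes, 11 rose, and UHRF1 and MCM6, the latter with 4 matches, were not called. In the whole replication list 87.5% rose, a like share, so holders of the site did not stand out. A match of letters is a description and not a bound site, and these lists were drawn up with such regulators in mind. POLA2, a subunit of DNA polymerase alpha, and LIG1, the ligase that joins Okazaki fragments, are shown because they were the 2 called holders with the smallest adjusted p. POLA2 was at 43.0, 45.4 and 45.4 CPM in controls and at 98.4, 97.8 and 98.3 CPM with the label. LIG1 rose by 0.68. The stretches read 5′ to 3′ on the gene's strand, with the match in capitals, at chr11:65261879-65261946 for POLA2 (plus strand) and chr19:48170421-48170488 for LIG1 (minus strand).
POLA2: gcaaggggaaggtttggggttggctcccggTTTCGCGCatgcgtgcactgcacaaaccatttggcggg
LIG1: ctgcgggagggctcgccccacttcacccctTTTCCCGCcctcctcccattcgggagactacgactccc

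Genes of mitosis went the other way, with 25 of 37 tested members lower and 2 higher, and a median log2 difference of -0.41. KIF20A, a kinesin of cytokinesis, was at 133, 126 and 127 CPM in controls and at 37.4, 38.4 and 42.5 CPM with the label. KIF20A fell by 1.71 ± 0.08, with an adjusted p of 6.75e-08, and its groups did not overlap. PLK1, a kinase of mitotic entry, was at 134, 138 and 141 CPM and at 43.7, 44.7 and 42.1 CPM. CCNB1, the cyclin of mitotic entry, was at 288, 280 and 301 CPM and at 98.0, 99.1 and 97.6 CPM. Both were lower in every labelled library than in any control. CDC20, AURKA and CCNA2 fell by 1.21, 0.92 and 1.12. Spindle genes were divided: TPX2, AURKB and NEK2 were not called, at 0.00, 0.04 and 0.05, and NUSAP1 and KIF2C rose by 0.67 and 0.41. With library totals in place of TMM, 15 members were lower and 5 higher, and the median was -0.23. Bulk RNA cannot tell fewer cells in mitosis from less RNA of these genes per cell.

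The letters TTTGAA or TTCGAA, forms of the cell cycle homology region (CHR) that mitotic promoters carry, were looked for in the same way. They occurred in 16 of the 30 promoters found for the mitosis list (53.3%) and in 14.6% of all promoters. Of the 16 genes, 11 fell and the other 5 were not called. In the whole mitosis list 67.6% fell, a like share, so holders of the CHR did not stand out. PLK1 and CDC20, an activator of the anaphase complex, were the 2 called holders with the smallest adjusted p, at chr16:23678830-23678888 and chr1:43358773-43358838 (both plus strand). The match lies 24 bases before the start in PLK1 and reads in reverse in CDC20.
PLK1: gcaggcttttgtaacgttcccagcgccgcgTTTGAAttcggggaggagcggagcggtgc
CDC20: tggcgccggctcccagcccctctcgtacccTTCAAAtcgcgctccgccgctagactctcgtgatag

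**Figure D2:**
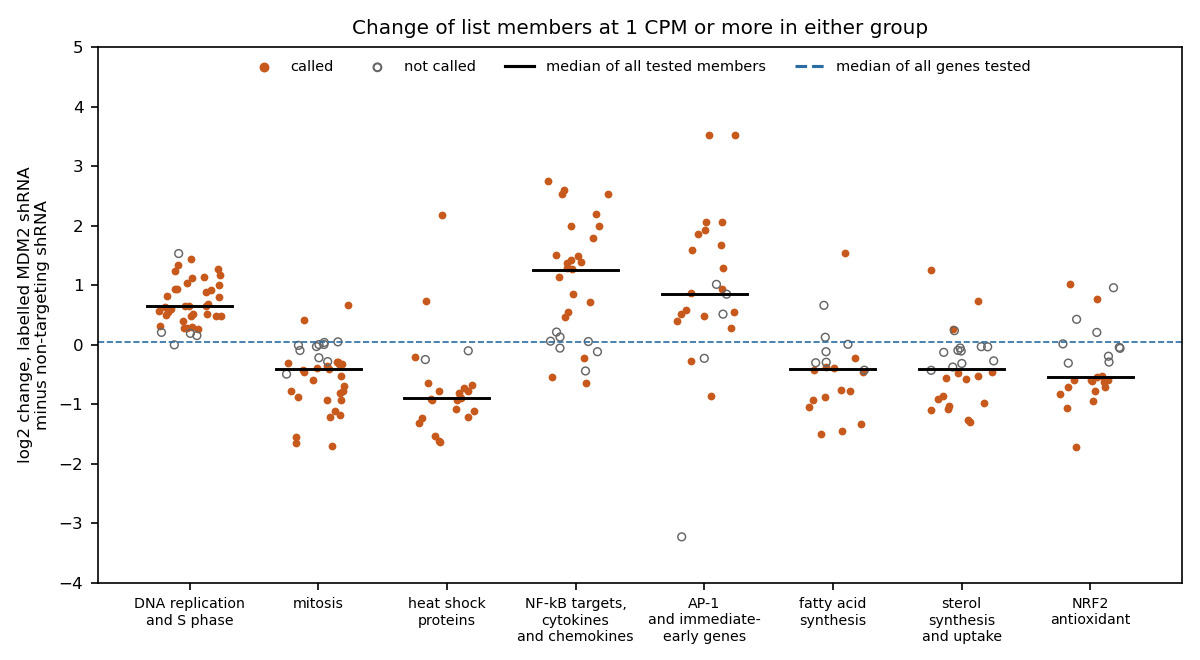
Log2 difference of each list member with at least 1 CPM in either group, for 8 lists. Filled points passed the test, open points did not, the bars are medians over all tested members and the dashed line is the median of all genes, 0.04. Replication genes lie mostly above the line, with MCM6 at -0.00, and mitosis and heat shock genes mostly below it.

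Heat shock genes had the lowest median of these 20 lists, with 19 of 23 tested members lower and 2 higher, and a median log2 difference of -0.89. These genes code for chaperones that fold other proteins. HSPA1A, an inducible HSP70, was at 386, 392 and 398 CPM in controls and at 132, 128 and 123 CPM with the label. HSPA1A fell by 1.62 ± 0.07, with an adjusted p of 3.21e-08. It has a near-identical copy in HSPA1B, which fell by 1.54, so that reads can be split between them. HSPD1, the mitochondrial chaperonin, was at 2078, 2094 and 2128 CPM and at 901, 896 and 899 CPM. HSP90AB1, a cytosolic HSP90, was at 2716, 2698 and 2826 CPM and at 1170, 1193 and 1173 CPM. The groups lay apart for each of these genes. DNAJB1 and HSPH1, cofactors of HSP70, fell by 0.91 and 0.78. HSF1, the factor that switches on this list, was not called at -0.10, and HSPB8, a small heat shock protein, rose by 2.18. Chaperones of the endoplasmic reticulum were lower in 13 of 25 cases and higher in 4, with a median of -0.44. HSPA5, the main one, was at 1220, 1202 and 1260 CPM and at 579, 593 and 603 CPM. Every labelled library lay below every control. PDIA4, PDIA6 and CALR fell by 1.10, 0.75 and 0.66, and the sensor ERN1 and its target XBP1 rose by 0.83 and 0.65.

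The letters GAANNTTCNNGAA or TTCNNGAANNTTC, a strict form of the heat shock element, occurred in 2 of 21 heat shock promoters (9.52%) and in 0.439% of all promoters. The letters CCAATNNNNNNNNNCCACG, the endoplasmic reticulum stress element, occurred in 6 of 24 promoters of the chaperone list for that organelle (25%) and in 0.0806% of all. Of these 6 genes, HSPA5, CALR, HSP90B1 and CRELD2 fell, XBP1 rose and CANX was not called. HSPA8, the constitutive HSP70, and CHORDC1, a cofactor of HSP90, hold the former element and fell by 1.63 and 0.68. For the 2 elements the 2 called holders with the smallest adjusted p are shown, at chr11:123062324-123062386 (HSPA8, minus strand), chr11:90223067-90223139 (CHORDC1, minus strand), chr9:125241361-125241439 (HSPA5, minus strand) and chr19:12938359-12938432 (CALR, plus strand, match in reverse).
HSPA8: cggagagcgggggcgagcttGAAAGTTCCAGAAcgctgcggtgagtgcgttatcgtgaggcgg
CHORDC1: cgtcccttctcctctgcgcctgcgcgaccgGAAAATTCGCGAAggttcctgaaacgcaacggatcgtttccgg
HSPA5: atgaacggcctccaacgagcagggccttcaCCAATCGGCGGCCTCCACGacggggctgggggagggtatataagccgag
CALR: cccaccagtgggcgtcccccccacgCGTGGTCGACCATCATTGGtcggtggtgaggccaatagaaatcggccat

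In each of 4 metabolic lists more members were lower than higher. Abundant genes leaned the same way, with 40.9% lower and 14.9% higher among protein-coding genes of at least 100 CPM. The sterol list, with 46.4% lower, lay close to that share. Whether the 4 lists fell more often than other genes of like level was not tested. Fatty acid synthesis had 13 of 22 members lower and 1 higher, with a median of -0.41. SCD, the desaturase of stearate, was at 722, 708 and 718 CPM in controls and at 253, 269 and 262 CPM with the label. It fell by 1.45 ± 0.06, with an adjusted p of 2.27e-08, and the groups did not overlap. FASN and FADS2, a synthase and a desaturase, fell by 1.33 and 1.5, and ELOVL7, an elongase, rose by 1.53. Sterol synthesis and uptake had 13 of 28 lower and 3 higher, with a median of -0.40. ABCG1, an exporter of sterol, rose by 1.25. Glycolysis and hypoxia genes had 21 of 35 lower and 4 higher, with a median of -0.46. LDHA, which makes lactate, fell by 1.2 and PGK1, a glycolytic kinase, by 1.11, and VEGFA and ENO2 rose by 0.35 and 0.75. Antioxidant targets of the factor NRF2 had 14 of 25 lower and 2 higher, with a median of -0.55. TXNRD1, the thioredoxin reductase, was at 743, 750 and 732 CPM and at 234, 145 and 294 CPM. All labelled libraries were lower, with a wide spread among them. NQO1 and GCLM fell by 0.83 and 0.94, and NFE2L2, which codes for NRF2, rose by 0.77.

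Of the 13 mitochondrially encoded transcripts, 12 fell and 0 rose, with a median of -0.63, or -0.45 with library totals. MT-CO1, a subunit of the last respiratory complex, was at 15465, 15114 and 16128 CPM and at 10619, 10813 and 10970 CPM. The groups did not overlap. Nuclear genes of oxidative phosphorylation had 20 of 36 lower and 0 higher, with a median of -0.25, the proteasome 18 of 34 lower and 2 higher, with -0.31, and cytosolic ribosomal proteins 22 of 74 lower and 0 higher, with -0.21. Over all genes 14.4% were lower, and of protein-coding genes of at least 100 CPM 40.9%, so the ribosomal protein share lay below that of abundant genes. These small shifts lay close to the scaling. With library totals, 6 oxidative phosphorylation genes were lower and 4 higher, 8 proteasome genes lower and 4 higher, and 5 ribosomal protein genes lower and 1 higher.

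**Figure D3:**
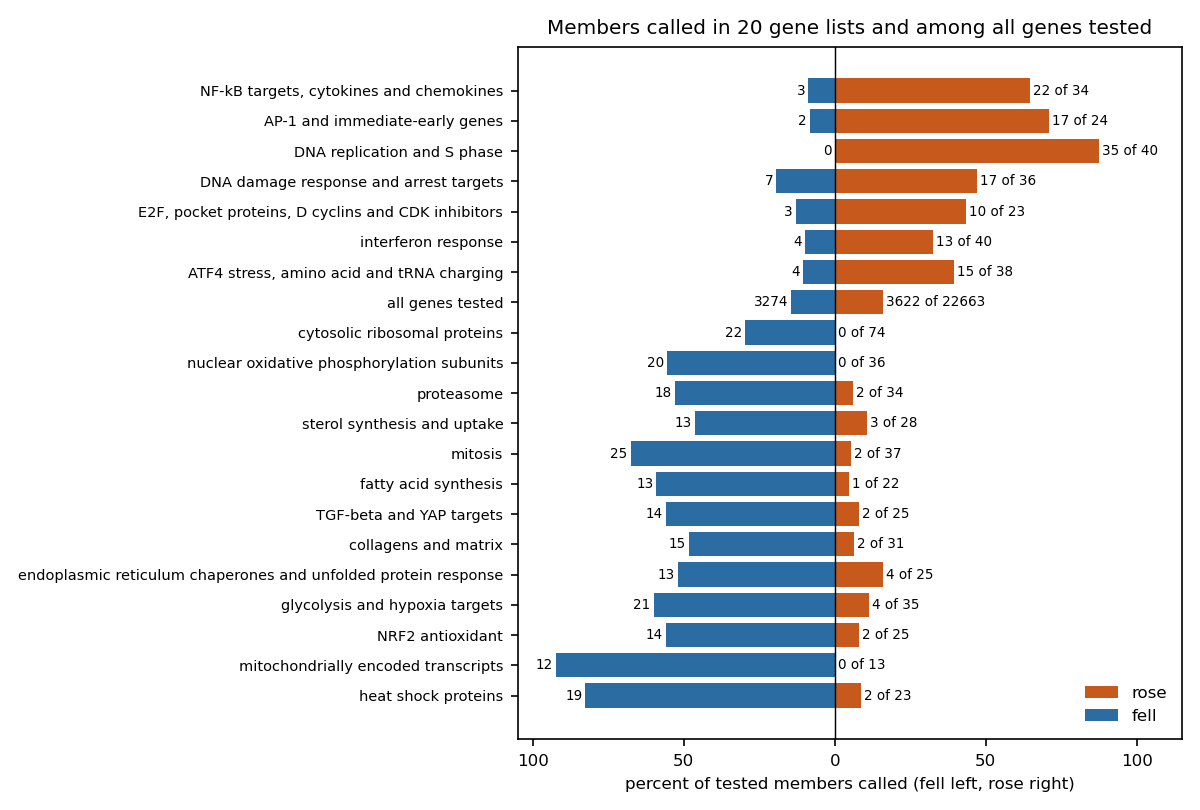
Percent of tested members called in 20 gene lists and over all genes, with falls to the left and rises to the right and the numbers of genes beside the bars. Lists are ordered by median log2 difference, from the NF-kB list at 1.25 at the top to heat shock proteins at -0.89 at the bottom.

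Collagens and matrix genes had 15 of 31 lower and 2 higher, with a median of -0.44. Over all genes 14.4% were lower, and of protein-coding genes of at least 100 CPM 40.9%. The shares lower were 48.4% for this list, 56.0% for the TGF-beta and YAP list and 30.8% for integrins and laminins. Whether these lists fell more often than other genes of like level was not tested. LOXL2, which crosslinks collagen, fell by 1.44, FBN2, a fibrillin, by 1.78 and COL18A1 by 1.09, and COL7A1 rose by 1.04. Among targets and parts of the TGF-beta and YAP pathways 14 of 25 were lower and 2 higher, with a median of -0.42. THBS1 and CCN2, targets of these pathways, fell by 1.03 and 0.85, YAP1 by 0.95, and ANKRD1, a classic YAP target, rose by 3.32. Integrins and laminins had 8 of 26 lower and 4 higher, with a median of -0.12. LAMA5 and ITGA3, a laminin and an integrin, fell by 1.39 and 1.13, and LAMB3, another laminin chain, rose by 2.84. KRT8 and KRT18 fell by 1.02 and 0.81, and KRT7 and KRT17 rose by 1.49 and 1.19.

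Markers of other cell types were low in both groups. The summed level of 8 tested leukocyte markers was 27.8 to 36.5 CPM in controls and 50.6 to 55.4 CPM with the label, and that of 6 endothelial markers 8.74 to 9.23 and 9.25 to 9.77 CPM. The 7 tested fibroblast markers summed to 28.6 to 41.8 and 18.9 to 24.7 CPM. PTPRC and CD3E, defining markers of leukocytes, were left out by the filter on low counts. ITGAM, an integrin of myeloid cells, was at 2.13, 2.56 and 1.76 CPM and at 21.9, 19.5 and 22.9 CPM. It rose by 3.33, while CD14, of the same cells, fell by 1.02. The part of such cells in the results was not tested.

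The largest rises were mostly of genes with low levels in the controls. NF2, which codes for merlin, a membrane-linked tumour suppressor of the Hippo pathway, was at 0.166, 0.199 and 0.222 CPM in the non-targeting libraries and at 12.8, 12.7 and 9.67 CPM with the label. It rose by 5.86 ± 0.54 on the log2 scale, with an adjusted p of 1.05e-05. Every labelled library was above every control. In MDA-MB-231 its means were 15.3 CPM without and 11 CPM with the label. UNC5B, a netrin receptor, was at 2.11, 2.38 and 2.56 CPM and at 55.7, 54.6 and 57.8 CPM, and ANO9, a membrane protein of the anoctamin family, at 0.366, 1.05 and 1.01 CPM and at 18.8, 21.8 and 19.4 CPM. NEURL3, a ubiquitin ligase gene, went from 8.02 to 102 CPM, and NGFR, the low-affinity receptor of nerve growth factor, rose by 4.10. The other large rises included TRIM67, CAMK1G, EGR4, AKR1B15, ARHGAP40, RCSD1, WDFY4, MYH2 and COL11A2, at 3.91 to 6.44 on the log2 scale. TRIM39-RPP21, a readthrough of 2 genes, was at 0 in all controls and at a mean of 2.76 CPM with the label, and shares its exons with both. Its call was lost when any of 4 libraries was left out. NR1D1, a repressor of the circadian clock, rose by 2.57.

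The largest falls were smaller and less even among libraries. TOMM6, part of the mitochondrial import pore, was at 77.6, 79.2 and 82.8 CPM in controls and at 6.81, 4.31 and 6.89 CPM with the label. Its groups did not overlap, and it fell by 3.73 ± 0.54, though it shares exons with another gene. SPIN1, a reader of histone marks, was at 49.0, 198 and 197 CPM and at 17.5, 17.3 and 16.4 CPM, so that its controls differed more among themselves than did the labelled libraries. TEAD1, the DNA-binding partner of YAP, was at 44.0, 37.9 and 134 CPM and at 17.2, 23.8 and 15.5 CPM, again with a wide spread in the controls. IGFBP5, which binds insulin-like growth factors, fell by 2.53, SEMA3D, a guidance signal, by 2.32, COL8A1 by 2.31, ID1, an inhibitor of basic helix-loop-helix factors, by 1.98 and ITGA4 by 1.92. AHNAK2, a large scaffold gene, fell by 1.82 from 200, 174 and 202 CPM to 56.5, 55.3 and 51.6 CPM. FGFBP1, GPRASP2, GDPGP1, PCDHA4, PCDHB13, MMP3 and METRN were among the other large falls, at -1.73 to -2.56. FGFBP1 lost its call without non-targeting replicate 1, at -2.37, and without 2 other libraries in turn. GPRASP2 was at -1.29 and not called without non-targeting replicate 1, and lost its call without each labelled library.

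In a list of long noncoding RNAs, 7 of 23 rose and 4 fell, with a median of 0.09. GAS5, a host of small nucleolar RNAs, was at 112, 112 and 107 CPM in controls and at 322, 313 and 314 CPM with the label, and SNHG12 at 25.4, 20.7 and 25.7 CPM and at 142, 133 and 134 CPM. Both groups of libraries lay apart for each. SNHG15 and SNHG1 rose by 1.28 and 1.16. LINC03061 fell by 1.51, from 89.4, 85.7 and 86.6 CPM to 30.2, 30.5 and 31.1 CPM. EGOT went from no more than 0.037 CPM in controls to 3.80, 4.57 and 2.68 CPM. The falls of AC087190.3 and AL662884.1 rested on 1 control library each, at 37.1 and 10.9 CPM. Without it they were at -0.44 and -1.02, and not called.

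The libraries labelled MDM2 shRNA lay closer to the PROTAC libraries of the same line than to their own controls. Over 10322 genes of at least 10 CPM, the root mean square log2 difference between 2 libraries was 0.320 to 0.344 within the non-targeting group and 0.329 to 0.351 within the labelled group. Between these groups it was 0.621 to 0.644. From the labelled libraries to the PROTAC libraries it was 0.317 to 0.490, with 6 of 9 pairs above the widest pair within the labelled group. Within the PROTAC group it was 0.399 to 0.490, with replicate 3 the farthest from the others. From the non-targeting to the DMSO libraries it was 0.324 to 0.401. In direct tests, 1 gene (0.00441% of genes tested) differed between the MDM2 shRNA label and the PROTAC, which was DNAL1, a dynein light chain, at 6.62 and 23 CPM, with 1051 genes at an unadjusted p under 0.05. Between the 2 control groups 4 genes (0.0176%) differed, RAB43, DNAL1, ETS1 and LST1, with 2579 at an unadjusted p under 0.05.

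**Figure D4:**
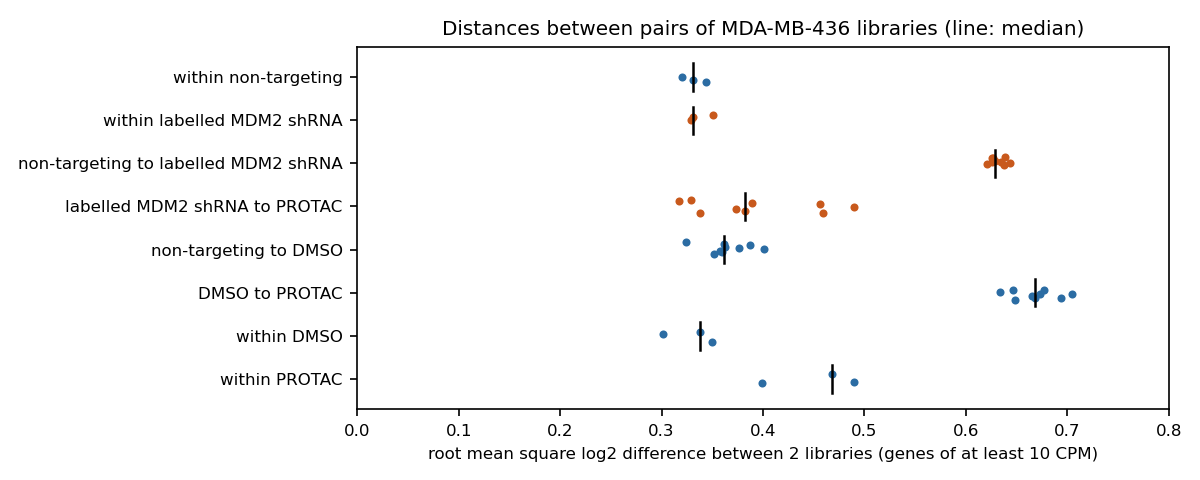
Root mean square log2 difference between pairs of MDA-MB-436 libraries over 10322 genes, each point 1 pair and each line a median. Pairs of non-targeting and labelled MDM2 shRNA libraries lie at 0.621 to 0.644, and pairs of labelled MDM2 shRNA and PROTAC libraries at 0.317 to 0.490.

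With the PROTAC against DMSO, 7334 genes (32.4%) were called. Of the 6896 called here, 5482 were called there too, and 5477 of those had the same sign. Across 15059 genes of at least 1 CPM, the 2 log2 differences had a Pearson r of 0.806, a description over genes that are not independent, in comparisons that share no library. The test of the difference in change found 1 gene (0.00441%), RAB43, a small GTPase, with 1230 genes at an unadjusted p under 0.05 and 35 calls in DESeq2. Without PROTAC replicate 3 there were 5 calls and 2631 genes at an unadjusted p under 0.05. In the fit over all 24 libraries the difference of RAB43 was -1.83 and not called, with an adjusted p of 0.416. RAB43 was at 8.48 CPM in the non-targeting and 18.9 CPM in the labelled libraries, and at 28.5 CPM with DMSO and 17.5 CPM with the PROTAC. GADD45A changed by 3.09 with the PROTAC, CXCL8 by 3.0, HSPA1A by -1.60 and KIF20A by -1.82, beside 2.93, 2.75, -1.62 and -1.71 here. TOMM6 changed by -0.68 with the PROTAC and -3.73 here, a difference that did not pass the test.

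The same hairpin label in MDA-MB-231 gave another pattern. The change differed between the lines for 4873 of 24719 genes (19.7%). Of 3402 genes called in MDA-MB-231 and tested in both, 1840 were also called here, and 1389 of those had the same sign. The Pearson r between the lines' log2 differences over 15059 genes was 0.141. These genes were kept by their level in the compared MDA-MB-436 libraries alone, whatever their level in MDA-MB-231. The same genes were used beside the PROTAC, whatever their level in the DMSO and PROTAC libraries, which are of the same line. Heat shock genes had a median of -0.03 in MDA-MB-231 and -0.89 here, and HSPA1A changed by -0.01 there, a difference between lines of -1.63 with an adjusted p of 1.31e-10. EGR1 changed by 0.44 there, a difference of 3.07, GADD45A by 0.61, a difference of 2.31, and E2F2 by 0.18, a difference of 2.29. GAS5 went the other way in MDA-MB-231, at -0.34. The mitosis list had medians of -0.41 here and -0.44 there. For PLK1 the changes were -1.66 and -1.49, and their difference of -0.18 was not called, with an adjusted p of 0.295.

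**Figure D5:**
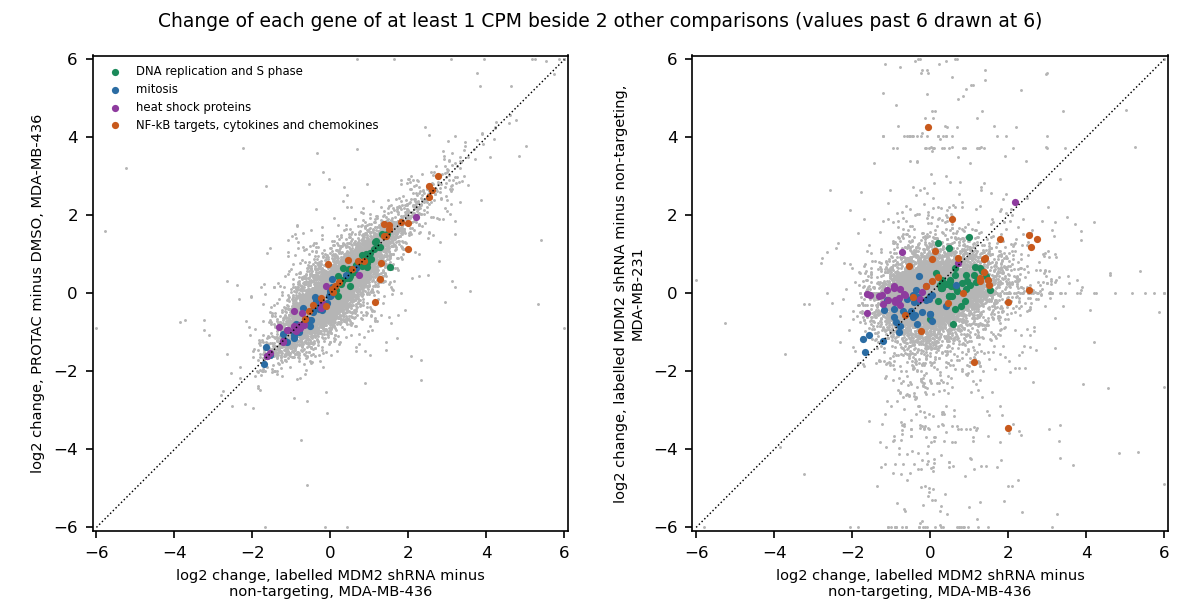
Log2 difference of each of 15059 genes of at least 1 CPM here (horizontal) beside the PROTAC change in the same line (left panel, vertical) and the change with the same hairpin label in MDA-MB-231 (right panel, vertical). Coloured points are 4 gene lists and the dotted line marks equal change. Points follow the line on the left (r of 0.806) and spread on the right (r of 0.141).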

How the data were processed

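RNA-seq counts per gene were used as deposited for 24 libraries, named by Ensembl gene. The tools of the authors, named without role or order in the submitters' processing notes, were HISAT2, StringTie, cutadapt 2.4 and edgeR, and the build was GRCh38. Values at 4 counts were 1.28 to 1.64 times as frequent as their neighbours, so the deposited counts may not be single reads. Symbols and positions came from GENCODE 29. Genes were filtered with filterByExpr, scaled by TMM and fitted with edgeR 4.0.16 (quasi-likelihood test, Benjamini-Hochberg adjustment, R 4.3.3) over the 12 MDA-MB-436 libraries, with 8 residual degrees of freedom. The difference from MDA-MB-231 came from 1 fit over all 24. Totals were 57213689 to 174744841 counts. Libraries within each compared group differed by more than the noise of counting, with a chi-square of 37.3 to 59.0 per degree of freedom between pairs. Same-numbered libraries correlated at 0.066, 0.094 and -0.03 in their deviations, so numbers were not used as pairs.

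Genes were named by rule: MDM2, MDM4, TP63 and TP73, the 15 largest rises and falls of called protein-coding genes of at least 1 CPM with no overlap between groups, 6 each of at least 50 CPM, 5 long noncoding RNAs each, per list the 4 lowest adjusted p, and 6 per sign for each difference in change. Some genes that the rule names are not reported here. Other genes named were chosen after their values were seen. The members and lists were chosen with earlier results of these data known. Motifs were searched on both strands of the 250 bases before the start in RefSeq promoters (12 motifs, of which the 4 given were chosen after their shares were seen; the AP-1 site was in 0 of 17 immediate-early promoters and the antioxidant element in 3 of 17 NRF2 promoters, 17.6% beside 11% of all). Alternatives used DESeq2 1.42.0, limma 3.58.1, other scalings and filters, a replicate block and leaving out each library.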

Additional observations from a re-analysis of the deposited data

Results flagged for a closer look

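The change with the MDM2 shRNA label differed between MDA-MB-436 and MDA-MB-231 for 4873 genes by the test of the difference. Of the genes named for the largest such differences (change here minus change in MDA-MB-231, log2), those with a positive sign were ST6GALNAC3 at 8.25, NEURL3 at 8.06, MAP2K6 at 8.05, PCSK1 at 7.82, COL4A6 at 7.60 and ITGAM at 7.52. Each was at 0 CPM in the MDA-MB-231 libraries labelled MDM2 shRNA. In MDA-MB-436 itself ST6GALNAC3 changed by -1.08 and MAP2K6 by -1.85, the latter not called, so neither rose there. Those with a negative sign were SLC8A1 at -7.08, TBX18 at -6.60, MATK at -6.37, CXCL14 at -6.36, NPPB at -6.36 and DLL3 at -6.31. Each was at 0 CPM in the MDA-MB-231 non-targeting libraries. The difference of MATK lost its call with a replicate block (adjusted p of 0.0686), with limma voom (0.321) and without each of the 6 libraries in turn, and those of SLC8A1 and NPPB with limma voom (0.171 and 0.166). Of the positive ones, NEURL3 lost its call with limma voom (0.0666) and ITGAM in edgeR with counts divided by 4 (0.0987). In MDA-MB-436 itself MATK, NPPB and DLL3 were not called. These fitted sizes depend on the prior count and are no bounds.

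The PROTAC change of RAB43 minus its change here was -1.86 on the log2 scale, and it passed the test of the difference. In the fit over all 24 libraries it was -1.83 and not called.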

How the results depend on the processing

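Over all settings 4 values of 2 genes reversed, and neither gene was called. MDM4 ranged from -0.52 (without labelled replicate 3) to 2.12 when 1 library was left out. MDM2 was at 0.07 with library totals and ranged from -0.27 to 0.13 when 1 library was left out, at 0.04 without non-targeting replicate 2. Of 4387 values of 214 named genes under an alternative, 4228 kept direction and side of the threshold and 132, of 31 genes, lost the call. Of 214 values of 12 genes named for a difference from MDA-MB-231, 17, of 6 genes, lost it. The count of genes called was 3715 (1986 higher, 1729 lower) without genes that share exons, which tests fewer genes, and 4593 (2158 lower) at an adjusted p of 0.01. With library totals 1937 were lower. Leaving out 1 library of the compared groups gave 5594 to 5633 calls, 2917 to 3073 higher and 2521 to 2705 lower. Other settings gave more calls than the 6896 of the main fit. The 6 compared libraries fitted alone gave 8715 (4409 higher, 4306 lower), and the fit without PROTAC replicate 3 gave 8110. DESeq2 gave 7841 and limma voom 7741. A replicate block gave 3433 higher and 3097 lower. The difference from the PROTAC change had 0 calls without genes that share exons (684 at an unadjusted p under 0.05 in edgeR), 35 in DESeq2, 1 with the block, 1 to 3 without 1 library and 5 without PROTAC replicate 3. The difference from MDA-MB-231 had 2551 calls (1304 higher, 1247 lower) without genes that share exons, 3105 (1543 and 1562) at 0.01, 4194 to 4321 without 1 library, and 2305 higher and 2295 lower with the block. The causes were not tested beyond the genes left out. MDM2 protein, hairpin sequence and time were not analysed here.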
